A study of Canis lupus familiaris with 77 samples.

Results

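The miRNA described here is miR-885, the entry cfa-miR-885 of the deposited count table, which is 1 of the 650 miRNAs with at least 1 read in the libraries used. It was picked by name because earlier work on these data had shown it to be high in brain and liver, so its levels and its ratios to all other tissues are given as a description, without a test. Direct comparisons between single tissues were fitted over all miRNAs, and since these samples also served to pick miR-885, their p-values are not independent evidence for it. The study made an atlas of the miRNAs of untreated male beagle dogs by miR-seq, the sequencing of small RNA. It covered 16 tissues, with 5 samples each of brain, liver, duodenum, jejunum, ileum, pancreas, skeletal muscle (quadriceps), heart, kidney, lung, thymus, testis, bone marrow and plasma, 4 samples of colon and 2 of sciatic nerve. Per the methods, the animals were 10 months old and were flushed with phosphate buffered saline before the solid organs were taken. Sciatic nerve gave little RNA, and the paper pooled it, in one account from all 5 dogs and in another from some of them. The labels do not say whether the 2 sciatic nerve samples used here were pools. The RNA of bone marrow and plasma was prepared by other procedures than that of the organs, and the part of the brain, of the gut segment or of the gut wall that was sampled is not stated in the labels. Per the methods the tissues came from 5 dogs, but the labels give no dog number, so samples were not paired, samples of different tissues may share a dog, and p-values measure the spread between these samples.

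A miRNA gene is transcribed as a hairpin, which is cut into a short duplex, and the arms of the duplex are named 5p and 3p after the side of the hairpin they come from. One arm is usually kept on an Argonaute protein, where it pairs with messenger RNAs and lowers their output, and the other is mostly lost. In miR-885 the main arm is 5p, which is the entry followed here, and the table also lists hsa-miR-885-3p, the other arm, under its human name. The 5p arm in blood is known as a candidate marker of liver injury, which makes its level in organs other than the liver of interest. In RefSeq's gene list for a different dog assembly (UU_Cfam_GSD_1.0), MIR885 lay within the span of 1 gene, ATP2B2, which encodes a calcium pump of the plasma membrane.

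Levels are given in RPM, the reads of a miRNA per 1000000 reads on miRNAs in the same library. Libraries held 157871 to 7896424 reads on miRNAs, so that a count of 0 allows up to 0.380 RPM in the deepest library and up to 19.0 RPM in the shallowest, taking 3 reads as the limit. These limits and the 95% Wilson intervals below cover counting error only. miR-885 had 11859 reads in all and at least 1 read in 58 of 76 libraries. RPM is a share of a library, so in these bulk samples fewer cells that hold miR-885 and less of it per cell cannot be told apart.

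miR-885 was highest in brain. The 5 brain samples held 875, 796, 885.5, 1412 and 231 RPM, with a median of 875 RPM and a mean of 840 ± 420 RPM (SD, n = 5). Brain samples 1 to 4 lay above every sample of any other tissue, whereas brain sample 5 lay within the range of liver. Liver came next, with 207, 189, 179, 338 and 237 RPM in its samples, a median of 207 RPM and a mean of 230 ± 64.1 RPM (SD, n = 5). The liver median was 23.7% of the brain median, and the brain value was the higher in 23 of the 25 pairs of a brain and a liver sample. By rank of the tissue median among the miRNAs of the same tissue, miR-885 was number 79 in brain and number 93 in liver. Its SD between samples was 18.1 times the SD expected from counting alone in brain and 4.45 times in liver.

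**Figure D1:**
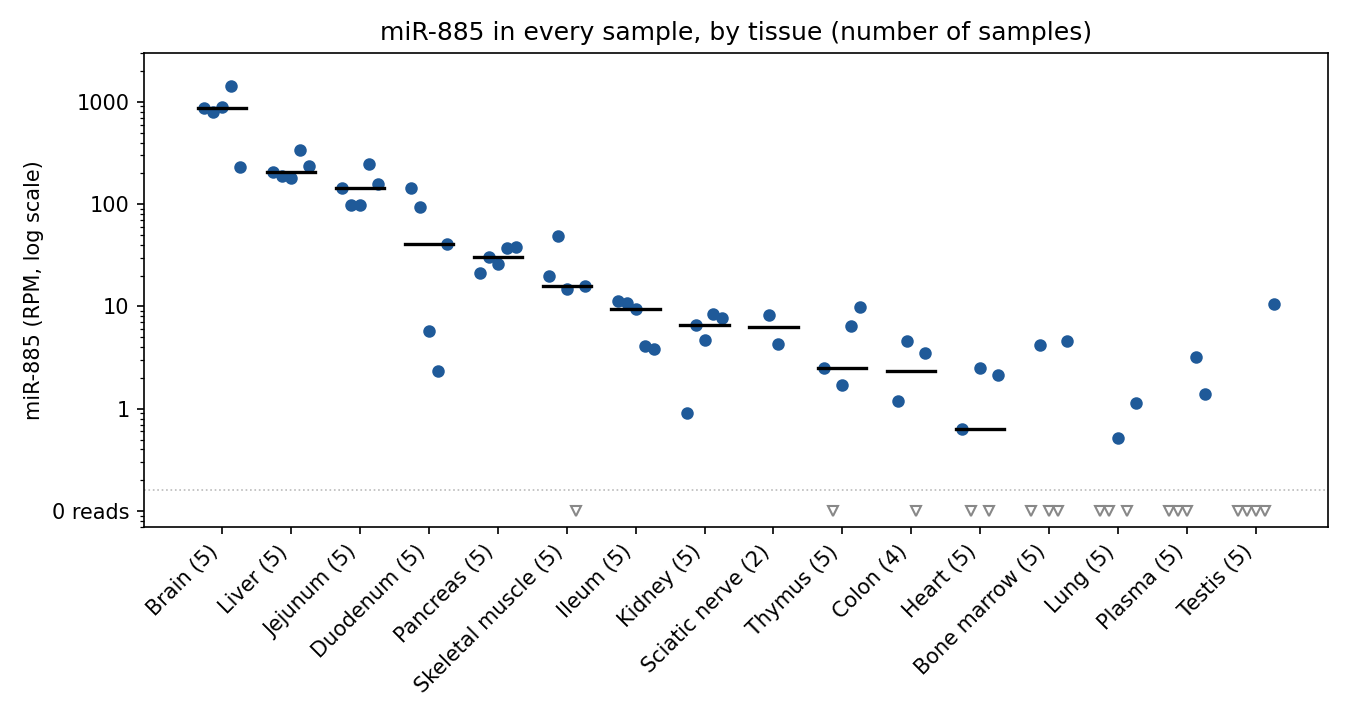
RPM of miR-885 on a log scale (vertical axis) in each of the 76 samples, by tissue in the order of the tissue median (horizontal axis). Circles are samples with reads, open triangles at the bottom are samples with 0 reads, and black lines are medians above 0. The medians fall from 875 RPM in brain through 207 in liver and 143 in jejunum to 0 in bone marrow, lung, plasma and testis.

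Jejunum was close behind liver, which the working description as a brain and liver miRNA leaves out. Its samples held 143, 98.2, 98.8, 248 and 157 RPM, with a median of 143 RPM and a mean of 149 ± 61.4 RPM (SD, n = 5). The ranges of liver and jejunum overlapped, since jejunum sample 4 exceeded 4 of the 5 liver samples. Jejunum sample 4 also exceeded brain sample 5. Duodenum was next, but its samples were spread from 2.33 to 142 RPM around a median of 41.0 RPM, so that its range overlapped those of jejunum and of every tissue that followed except lung. Pancreas held 21.0 to 38.5 RPM with a median of 30.2 RPM, and its SD was only 1.56 times the SD expected from counting. Skeletal muscle followed with a median of 15.8 RPM and a range of 0 to 49.2 RPM.

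Below these tissues miR-885 was scarce. The median was 9.33 RPM in ileum, 6.58 RPM in kidney, 6.27 RPM in sciatic nerve, 2.50 RPM in thymus, 2.34 RPM in colon and 0.633 RPM in heart. Each of these tissues overlapped its neighbour in this order. In the deeper libraries these levels were well above the limit, as in ileum sample 1 with 69 reads and kidney sample 4 with 49 reads, whereas in thymus, colon and heart several samples had 5 reads or fewer. In bone marrow, lung, plasma and testis the median was 0 RPM. The limit was 12.6 to 18.5 RPM in the bone marrow libraries. It was 10.4 to 13.7 RPM in testis samples 1, 2, 4 and 5, and 1.48 RPM in testis sample 3. Most of these limits exceed the ileum median, so depth limits the place of bone marrow and testis in this order. Lung had the lowest mean, 0.329 RPM from 3 reads in all 5 libraries. In plasma, the fluid in which miR-885 would be looked for as a marker, 2 of the 5 samples had reads, namely 5 reads (3.19 RPM, 95% Wilson interval 1.36 to 7.48) and 2 reads (1.38 RPM, 0.379 to 5.04). The plasma samples with 0 reads allow up to 10.9, 1.70 and 2.16 RPM. The animals were untreated, so these are levels without induced organ injury.

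One part of the study's criterion for tissue enrichment is that the mean of a tissue exceed 5 times that of the remaining samples, and the other part, a rank-sum p, was not computed here because this contrast picked miR-885. In brain this ratio was 23.2 for miR-885, and 30.9% of the 650 miRNAs passed the same limit in brain. In liver the ratio was 2.91, under the limit, which 2.00% of the miRNAs passed there. The study nevertheless treats miR-885 as enriched in liver, and names it as a candidate for brain and sciatic nervous tissue as well. It also measured miR-885 by quantitative PCR in tissues and in the serum of dogs given liver toxicants, where it rose in dogs with liver injury. The brain samples are part of the reference for liver, and without brain sample 4 the liver ratio was 3.82. In jejunum the ratio was 1.75, where 2.15% of the miRNAs passed. A ratio above 5 in both brain and liver was reached by 1 miRNA (0.154%), rno-miR-107-5p, whose highest tissue median was only 2.18 RPM.

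The stricter measure, the tissue median over the highest sample of any other tissue, was 2.59 for miR-885 in brain, and the limit of 5 was passed by 8.62% of the miRNAs. For a miRNA shared by a pair of tissues the study asks that the lower of both medians exceed 70% of the higher, with every other tissue under 20%. miR-885 met the later part of this measure, with jejunum at 16.3% of brain, but not the earlier part, with liver at 23.7%, and 8 miRNAs (1.23%) met both in any tissues. Brain and liver were the tissues with the highest medians for 8 miRNAs (1.23%). In 3 of these (0.462%) the next tissue was below 20% of the highest, namely miR-885, its own 3p arm and miR-219-3p. The last, a miRNA of oligodendrocytes, was at 0.399 RPM in liver. The rule that picked miR-885 used the same contrasts, and nothing is read from these shares.

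Brain was compared with liver by edgeR's quasi-likelihood test over all miRNAs that passed the filter on low counts, with TMM scaling, which centres the bulk of the miRNAs between libraries. miR-885 was higher in brain by 1.15 on the log2 scale (SE 0.33, 95% interval 0.44 to 1.86), which is 2.23-fold, with a Benjamini-Hochberg adjusted p = 0.00558 by edgeR. Of 339 miRNAs tested, 169 were higher in brain (49.9%) and 107 higher in liver (31.6%), 81.4% in all, so a call between these organs was common and miR-885 ranked 246 of 339 by p. The median of all 339 miRNAs was itself 0.79 higher in brain on the log2 scale, and miR-885 exceeded that median by 0.37. With scaling to the library total alone the median was 1.45 and miR-885 was 1.87 higher in brain, with 188 miRNAs higher in brain and 75 in liver. Upper quartile scaling brought the median to 0.12 and miR-885 to 0.50, with an adjusted p of 0.191 by edgeR and a split of 146 to 131. DESeq2 gave 0.74 with an adjusted p of 0.0515 and a split of 151 to 126.

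**Figure D2:**
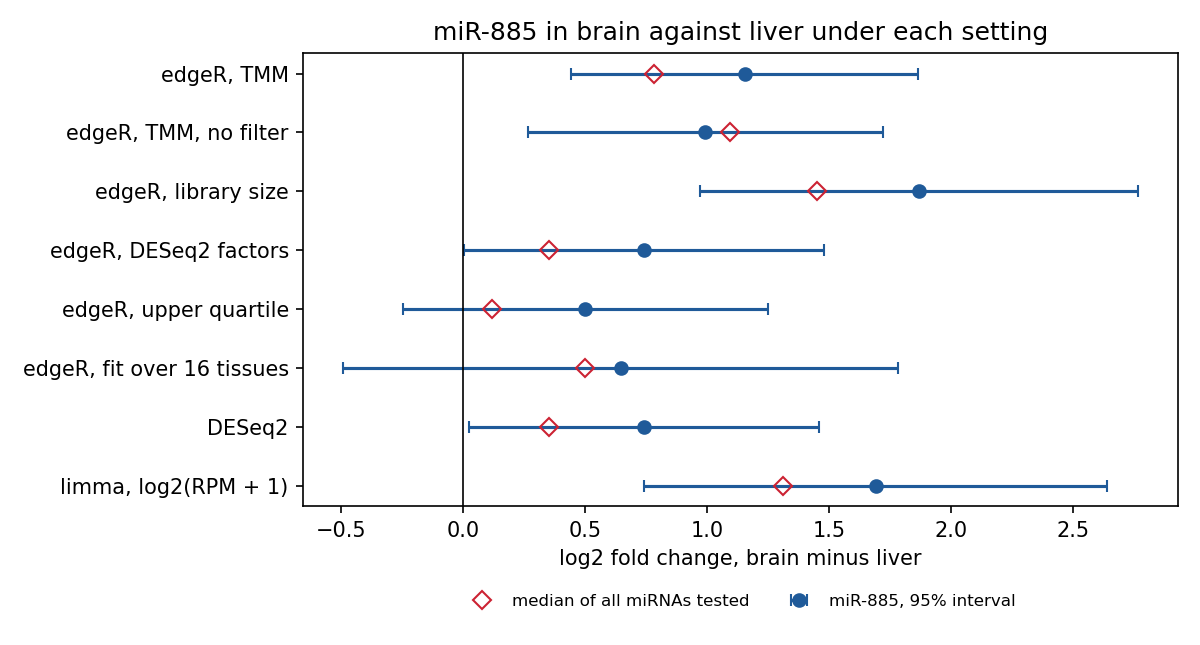
Log2 fold change of miR-885, brain minus liver (horizontal axis), under 8 settings of the model and scaling (vertical axis). Filled circles with bars are miR-885 and its 95% interval, and open diamonds are the median of all miRNAs tested in the same fit. miR-885 lies between 0.50 and 1.87, and the median moves with it from 0.12 to 1.45.

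The size of the step from brain to liver thus moved with the scaling. In edgeR with TMM, library size, DESeq2 factors and upper quartile, miR-885 exceeded the median miRNA by 0.37 to 0.42 on the log2 scale. DESeq2 and limma gave values in that range. A change of scaling shifts all miRNAs by nearly the same amount, so this excess hardly moves by construction and nothing is read from its steadiness. The excess was 0.15 in the fit over all tissues and -0.10 without the filter on low counts. On TMM-scaled values the brain median fell to 368 and the liver median was 231, so that liver stood at 62.7% of brain in place of 23.7%. On that scale the brain value was the higher in 20 of 25 sample pairs. TMM factors of the brain libraries were 1.48 to 2.77 and those of the liver libraries 0.769 to 1.13. With each sample left out in turn the edgeR value was 0.90 to 1.28, and the adjusted p stayed under the threshold in 10 of 10 fits (8.94e-04 to 0.0390).

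The organs themselves were well separated by the miRNAs that mark their main cells. Of the 19 entries of the neuron list, 13 passed the filter on low counts, from miR-124, miR-9, miR-128, miR-138, miR-153, miR-132 and miR-212 but not from miR-137, and these 13 were higher in brain by edgeR (49.9% over all miRNAs), with a median log2 fold change of 9.14 against 0.79 over all miRNAs. All 7 entries of the hepatocyte list (miR-122, miR-192, miR-194 and miR-148a) were higher in liver (31.6% over all miRNAs), with a median of -5.79. Some entries passed the filter only through the organ where they are high, which fixed their direction. Thus hsa-miR-124-5p, hsa-miR-128-2-5p and hsa-miR-9-3p had a liver mean of 0 RPM, and hsa-miR-122-3p a brain mean of 0 RPM. The counts of both lists are therefore a description and no test of the organs. Of the oligodendrocyte list (miR-219 and miR-338), 5 of 6 entries were higher in brain (49.9% over all miRNAs). Here too miR-219-3p was near 0 in liver, with a mean of 0.655 RPM, so this count is likewise a description. Blood and vessel lists went the other way, with 4 of 4 tested leukocyte, 3 of 4 erythroid and 2 of 2 endothelial entries higher in liver, again beside 31.6% over all miRNAs, while 0 of 2 tested muscle entries passed and no pancreas acinar entry was tested. miR-122, the most liver-restricted of these miRNAs, was at 19138 to 29157 RPM in liver and at most 1.36 RPM in brain. miR-124, a neuronal miRNA, was at 2067 to 4574 RPM in brain and at most 1.63 RPM in liver.

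Brain sample 5 held 231 RPM of miR-885 (95% Wilson interval 212 to 251), 531 reads of a library of 2301839, and the other brain samples held 796 to 1412 RPM. The same sample was lowest of the brain samples in miR-124 (2067 RPM against 2466 to 4574), in miR-9 (21762 against 35339 to 40348) and in miR-128 (18666 against 23306 to 49434). It was highest in the oligodendrocyte miRNAs, with 1435 RPM of miR-219-3p against 145 to 712 and 1236 RPM of miR-338 against 544 to 1159. Of the neuronal miRNAs, miR-137 and miR-132 were lowest in brain sample 3 instead. The lower level in brain sample 5 was not confined to neuronal miRNAs. Its endothelial, hepatocyte, leukocyte and muscle sums were also the lowest, at 5758, 4512, 131 and 78.2 RPM, though its erythroid sum was not. A single miRNA, miR-181a, took 37.3% of its reads and 15.6% to 21.5% in the others. The summed neuron list was 49975 RPM in brain sample 5 and 71237 to 108805 RPM in the others. Per 10000 reads of that list, miR-885 was at 46.2 in brain sample 5 and at 80.5 to 131 in the others, so it was lower there by more than the list as a whole. The part of these cell types in the low value was not tested.

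**Figure D3:**
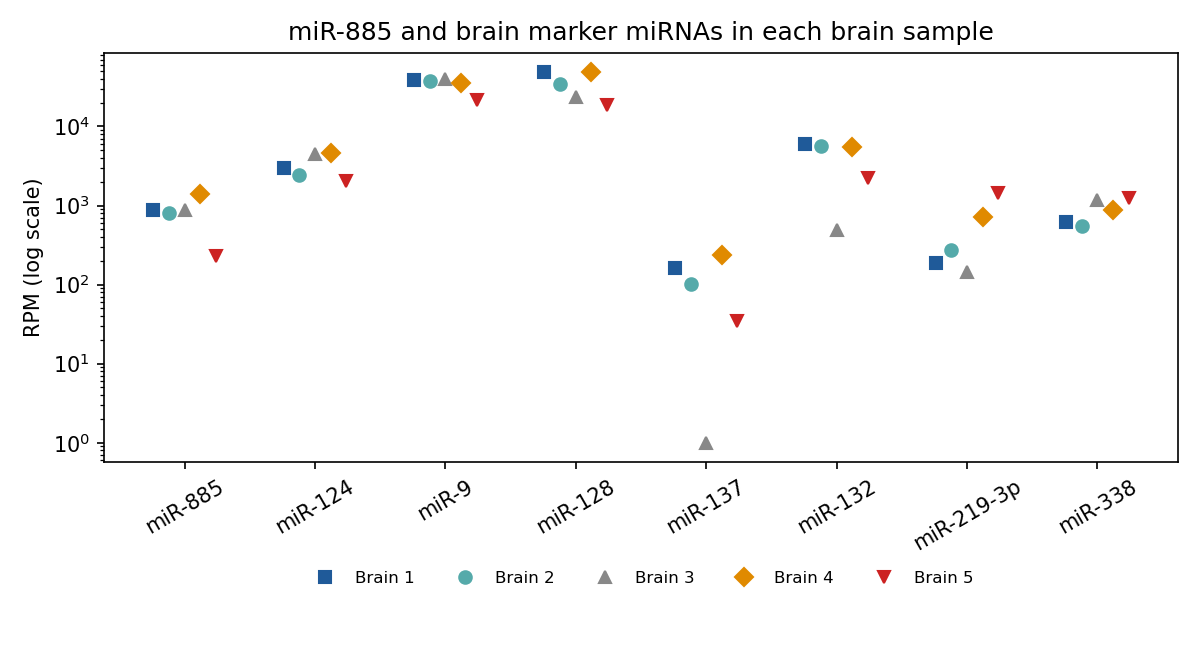
RPM on a log scale (vertical axis) of miR-885, of the neuronal miR-124, miR-9, miR-128, miR-137 and miR-132, and of the oligodendrocyte miR-219-3p and miR-338 (horizontal axis) in the 5 brain samples, 1 symbol for each sample. Brain sample 5 is lowest for miR-885 (231 RPM), miR-124, miR-9 and miR-128 and highest for miR-219-3p and miR-338.

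Brain sample 3 stood apart in another way. Its miR-137 was at 0.982 RPM against 34.8 to 238 in the other brain samples, its miR-132 at 486 RPM against 2220 to 5926, and its miR-192 at 23546 RPM against 2518 to 3151. Its miR-885, at 885.5 RPM, was nevertheless between those of brain samples 1 and 4. Without brain sample 5 the brain mean was 992 ± 283 RPM (SD, n = 4).

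The 3p arm followed the 5p arm at a far lower level. In brain it was at 17.8, 30.8, 18.7, 27.8 and 11.7 RPM, in liver at a median of 9.25 RPM (6.38 to 13.4) and in jejunum at a median of 3.27 RPM (0 to 3.97). All brain and liver samples had reads of it, and no other tissue but jejunum had a median above 1 RPM. In all, it had 338 reads in 28 samples. The difference between brain and liver was 0.53 on the log2 scale (SE 0.30, 95% interval -0.12 to 1.17), with an adjusted p of 0.118 by edgeR. Scaling to library size gave 1.19 with an adjusted p of 0.0112 by edgeR, so the call for this arm turned on the scaling too.

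The balance of the arms was compared between the organs richest in miR-885. Of the reads of both arms together, 3p took 2.78% in brain (95% Wilson interval 2.44 to 3.16), 3.94% in liver (3.13 to 4.96) and 1.85% in jejunum (1.27 to 2.67), with the reads of all samples of a tissue summed. Over samples, the mean share was 2.91% ± 1.31 in brain, 3.92% ± 0.733 in liver and 1.98% ± 1.56 in jejunum (SD, n = 5 each). In brain the samples ranged from 1.93% to 4.84%, and the highest share was that of brain sample 5, which had the least 5p. Two-sided exact permutation tests, added after the levels were seen, gave p = 0.198 for brain against liver, p = 0.325 for brain against jejunum and p = 0.0556 for liver against jejunum. Adjusted over these 3 comparisons by Benjamini-Hochberg, the exact permutation p-values were 0.298, 0.325 and 0.167. The mean share differed by -1.01 percentage points, brain minus liver, less than the SD of brain. Each sample was also left out in turn in all 3 comparisons. Only the leave-outs given below had an unadjusted exact permutation p under 0.05, and none of these p-values was adjusted for the number of leave-outs. Without brain sample 5 the difference was -1.50 points with an unadjusted exact permutation p of 0.0476. The share in liver exceeded that in jejunum by 1.94 points and was the higher in 21 of 25 sample pairs. That difference was 2.17 points without liver sample 1 (unadjusted exact permutation p = 0.0476) and 2.41 points without jejunum sample 2 (unadjusted exact permutation p = 0.0317).

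**Figure D4:**
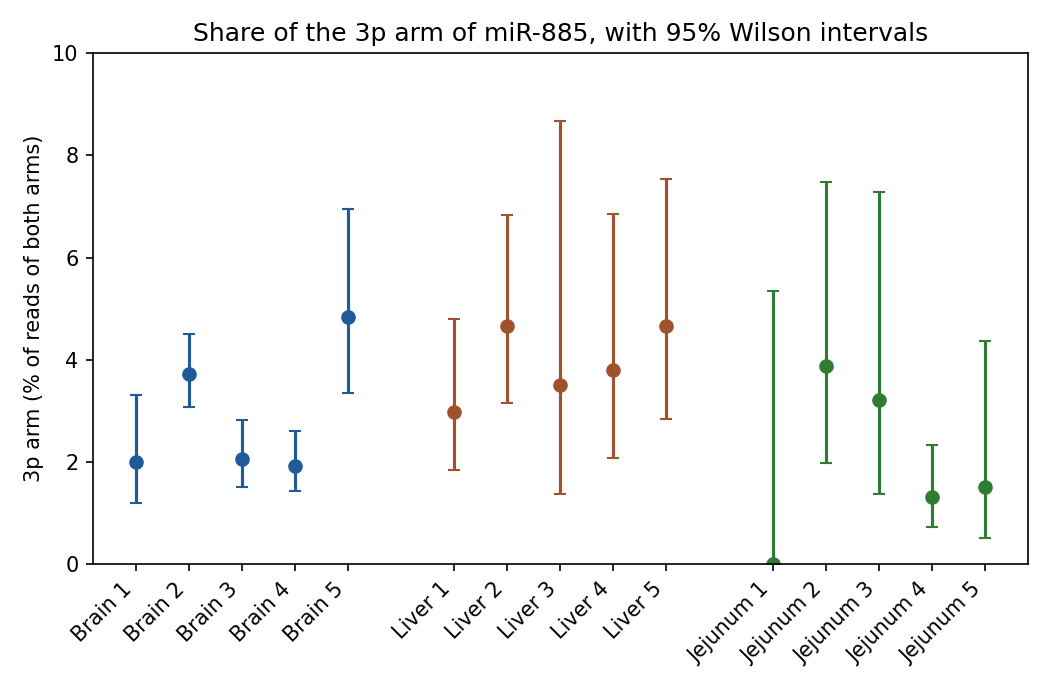
Share of the 3p arm among the reads of both miR-885 arms in percent (vertical axis) in each sample of brain, liver and jejunum (horizontal axis), with 95% Wilson intervals as bars. The samples lie between 0% and 4.84%, and the ranges of the 3 tissues overlap.

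Along the gut, miR-885 dropped steeply between jejunum and ileum. Jejunum held 98.2 to 248 RPM, ileum held 11.3, 10.7, 9.33, 4.12 and 3.80 RPM, and colon held 1.20, 4.57, 0 and 3.48 RPM. Every jejunum sample lay above every ileum sample, and jejunum sample 2, the lowest, was far above the highest ileum sample. This comparison and the other gut fits were added after the levels were seen. In edgeR the difference between jejunum and ileum was 4.23 on the log2 scale (SE 0.35), which is 18.8-fold (95% interval 11.0 to 32.1), with an adjusted p = 4.49e-06 by edgeR. Leaving out each sample in turn gave 4.05 to 4.40.

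Of 263 miRNAs tested, 28 were higher in jejunum (10.6%) and 21 higher in ileum (7.98%), 18.6% in all, and miR-885 ranked 3 by p. Without jejunum sample 1 the calls in both directions came to 31, and without ileum sample 1 to 28, in place of 49. The miRNAs ahead of miR-885 were cfa-miR-196a and cfa-miR-196b, which lie in HOX gene clusters. Both were high in ileum, at 357 ± 77.9 and 439 ± 134 RPM, and nearly without reads in jejunum, at 0.451 ± 0.314 and 1.74 ± 1.04 RPM (SD, n = 5). Ranked after miR-885, cfa-miR-802 was 2.60 higher in jejunum on the log2 scale (adjusted p = 7.32e-04 by edgeR). These names were chosen after their values were seen.

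Within the duodenum, samples 1 and 2 held 142 and 94.7 RPM of miR-885, as much as jejunum, sample 5 held 41.0 RPM, and samples 3 and 4 held only 5.77 and 2.33 RPM, from 8 and 3 reads. The low samples were also low in miR-192, a miRNA of gut epithelium, liver and kidney, with 22363 and 5188 RPM against 77588 to 385247 RPM in the other duodenum samples. They were high in miR-143, a miRNA of smooth muscle and connective tissue, with 604122 and 408300 RPM against 84748 to 209375 RPM. miR-143 took 60.4% and 40.8% of their reads. Other miRNAs did not set both samples apart. Duodenum sample 3 was highest of the duodenum samples in miR-200b (34.6 RPM) and miR-375 (9407 RPM). Duodenum sample 4 was lowest in both (1.56 and 239 RPM). The erythroid sums of duodenum samples 3 and 4 were 22920 and 74504 RPM, against 1743 to 33939 RPM in the other duodenum samples. The part of these miRNAs' cell types in the result was not tested. Without duodenum samples 3 and 4 the duodenum median was 94.7 RPM (41.0 to 142, n = 3) in place of 41.0 RPM. It was 23.4 RPM without duodenum sample 1 or without duodenum sample 2, the libraries that were close to jejunum.

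Duodenum differed from jejunum by -1.38 on the log2 scale (95% interval -2.96 to 0.20) with an adjusted p of 0.396 by edgeR. The interval includes both no difference and a level more than 5 times lower. No miRNA of 249 was called between these segments by edgeR (0%), although 37 had an unadjusted p under 0.05 and DESeq2 called 25. Without duodenum sample 1 edgeR called 17 miRNAs and without duodenum sample 2 it called 27, and miR-885 was not among the calls in any of the 10 fits with a sample left out (adjusted p 0.147 to 0.584 by edgeR).

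When miR-885 was set against miR-192 in the same library, the spread within the duodenum narrowed. Per 10000 reads of miR-192, miR-885 had 5.33, 2.46, 2.58, 4.50 and 5.29 reads in duodenum samples 1 to 5, although their RPM values had differed by far more. The jejunum samples had 5.15, 2.46, 3.07, 11.1 and 5.18, and the ileum samples 0.730, 0.422, 0.410, 0.718 and 0.679. Duodenum and jejunum therefore overlapped, and both lay wholly above ileum. In colon the values were 0.0903, 0.440, 0 and 0.170. This ratio to miR-192 was chosen after the levels were seen. In duodenum samples 3 and 4 it rests on 8 and 3 reads of miR-885. The narrowing also depended on the denominator, and the duodenum samples were spread more widely per miR-194 or per miR-215. Thus duodenum sample 2 held 91939 RPM of miR-215 and duodenum sample 3 held 424 RPM.

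Two-sided exact permutation tests of the log2 ratio gave p = 0.00794 for jejunum against ileum and for duodenum against ileum, the smallest p that 5 against 5 samples allow. Adjusted over 3 comparisons these exact permutation p-values were 0.0119. The medians stood 7.58-fold and 6.62-fold above ileum. For duodenum against jejunum the exact permutation p was 0.508, with means of 4.03 ± 1.42 and 5.38 ± 3.39 (SD, n = 5). miR-192 made up 15.5% of the reads of ileum and 15.6% of those of colon by the median. In liver the ratio was 8.52 to 19.2 and in pancreas 6.59 to 15.2, above the range of duodenum.

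**Figure D5:**
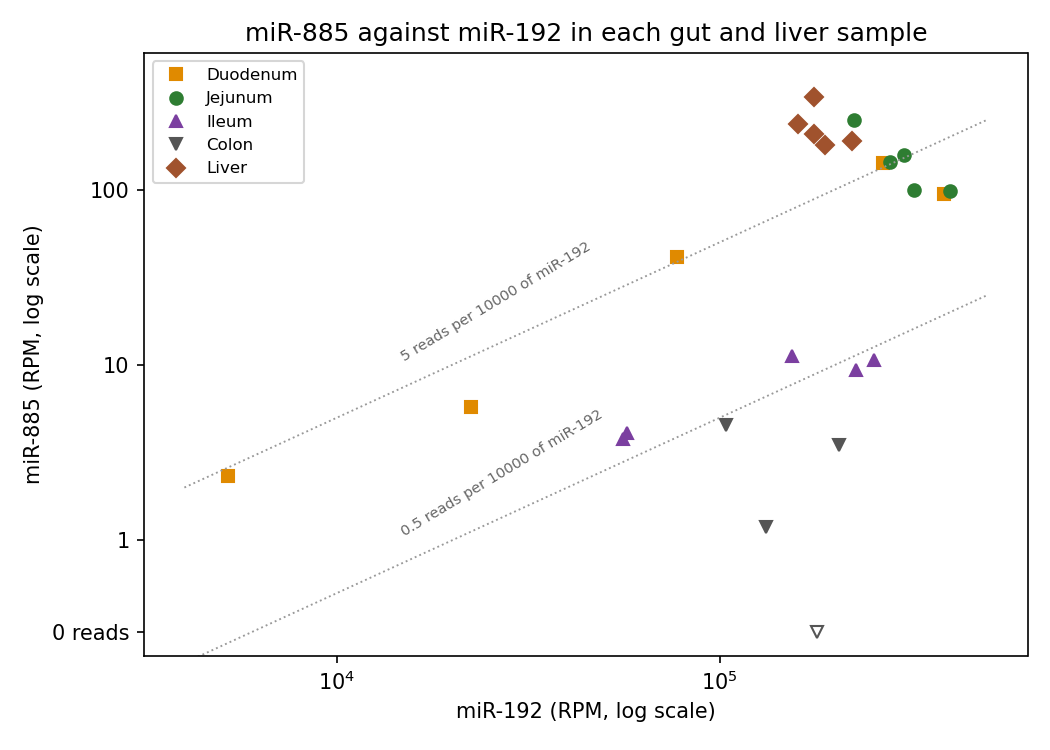
RPM of miR-885 (vertical axis, log scale) against RPM of miR-192 (horizontal axis, log scale) in each sample of duodenum, jejunum, ileum, colon and liver. Dotted lines mark 5 and 0.5 reads of miR-885 per 10000 reads of miR-192, and an open symbol at the bottom is a sample with 0 reads of miR-885. Duodenum samples follow the upper line from 2.33 to 142 RPM, and ileum samples follow the lower one.

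Liver and jejunum, which overlapped in RPM, were also compared in edgeR. Liver was higher by 0.62 on the log2 scale (95% interval 0.09 to 1.15), with an adjusted p of 0.0367 by edgeR. Of 245 miRNAs tested, 73 were higher in liver (29.8%) and 92 in jejunum (37.6%), together 67.3%. The call for miR-885 was lost with scaling to library size (adjusted p = 0.0736 by edgeR) and without liver sample 1, 4 or 5 or jejunum sample 3 (adjusted p 0.0548, 0.112, 0.0602 and 0.0970 by edgeR). The jejunum samples held at most 3.27 RPM of miR-122, and liver 19138 RPM or more; the defining liver miRNA was thus near 0 in jejunum. The hepatocyte list as a whole did not separate these organs, with a summed level of 273141 to 449232 RPM in jejunum and 260898 to 331050 RPM in liver, since miR-192, miR-194 and miR-148a are shared by both.

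The ratio of miR-885 to miR-122 shows how differently these miRNAs are spread. In liver miR-885 stood at 0.00942 of miR-122 by the medians, and in brain, jejunum and pancreas miR-885 was the more abundant of the pair. miR-122 was at most 12.6 RPM in pancreas and 5.77 RPM in duodenum. The neuron list was likewise low in these organs, with a summed level of 317 to 462 RPM in jejunum and 535 to 673 RPM in pancreas against 49975 RPM or more in brain. Higher sums outside brain were found where miR-885 was low, up to 5507 RPM in thymus, 4330 RPM in plasma, 1858 RPM in testis and 1354 RPM in sciatic nerve. The thymus and plasma sums were mostly miR-128, which was at 5216 RPM in thymus sample 4 and 4284 RPM in plasma sample 4. In the same samples miR-124 was at 0.878 and 0 RPM, and miR-9 at 25.2 and 0 RPM.

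In skeletal muscle, 4 samples held 19.7, 49.2, 14.7 and 15.8 RPM, and sample 4 had 0 reads of 220445, which allows up to 13.6 RPM. That library did not carry the markers of its label. Its summed muscle list (miR-1, miR-133, miR-206, miR-208 and miR-499) was 735 RPM, against 39240 to 116605 RPM in the other skeletal muscle samples. Without it the skeletal muscle median was 17.7 RPM and the mean 24.8 ± 16.4 RPM (SD, n = 4). Skeletal muscle and pancreas overlapped with and without it.

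The miRNAs most like miR-885 over the 16 tissue medians, by Pearson's r of log2(RPM + 1) among 430 miRNAs with a tissue median of at least 10 RPM, were led by its own 3p arm at r = 0.83. These correlations are a description over 16 points that share libraries, and the median r of the 430 was 0.17. Next came miR-137 (0.69), miR-490-5p (0.68), cfa-miR-139 (0.66), miR-212 (0.65), miR-7a-2-3p (0.62), miR-29a (0.62) and miR-124 (0.61). Brain was the highest tissue for 7 of these 8, the exception being miR-29a, which was highest in pancreas. The 8 were picked for likeness to a profile that peaks in brain, so nothing is read from that count. None but the 3p arm and miR-29a had a liver median above 0.399 RPM.

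Without brain, r fell to 0.74 for the 3p arm, to 0.51 for miR-137 and miR-29a, and to 0.26 for miR-124. The 3p arm was the most like miRNA under 6 of 7 other settings, and under the remaining one, which asked for a tissue median of 100 RPM, it was not compared. The others were less stable, and only 3 of the 8 were still among the first 8 after TMM scaling. Of the 8, miR-137, miR-212 and miR-124 were on the neuron list, while other miRNAs of that list had a lower r (0.46 for miR-9, 0.32 for miR-138a and 0.26 for miR-128), and miR-219-3p of the oligodendrocyte list had 0.59. Apart from its own 3p arm, none of the 8 had brain and liver as its highest tissues.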

How the data were processed

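The members and marker lists were chosen with earlier results of these data known. The authors aligned reads to CanFam3.1 with OSA version 4 (submitters' processing notes) without mismatches, excluded reads at more than 10 locations, and deposited the count per miRNA locus (overlap of at least 70%), the total reads on miRNAs and the RPM. The table gives no coordinates. A miRNA absent from a sample was set to 0. Used were 76 of 77 labelled samples, 1 colon sample being without values, and 1 sample name in the table could not be assigned and was not used. RPM computed again from counts and totals matched within a relative difference of 2.89e-09.

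Comparisons used edgeR 4.0.16 (TMM, filterByExpr, quasi-likelihood test, Benjamini-Hochberg over all miRNAs, threshold 0.05), with DESeq2 1.42.0 and limma 3.58.1 as alternatives, in R 4.3.3. Levels and exact permutation tests used Python 3.11.15 with scipy 1.17.1. Correlations used a pseudocount of 1 RPM. Named miRNAs were miR-885, its 3p arm, the marker lists, the 8 most like miRNAs and the miRNAs of brain and liver with the next tissue under 20%. miR-143, miR-200b, miR-215 and miR-375, and the gut fits, were added after the values were seen. The fit of brain against liver was tested on simulated data of 364 miRNAs, where it called 60.0% of those changed by 1 on the log2 scale, 100% of those changed by 2 or 3 and 1.62% of those unchanged. In the simulation 247 miRNAs were unchanged, all had the same spread beyond counting, and the direction of change was random. In the data 81.4% were called and the median miRNA was 0.79 higher in brain, so the simulated rates do not carry over.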

Additional observations from a re-analysis of the deposited data

Results flagged for a closer look

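In 5 of 25 groups of 4 or 5 samples, 1 sample lay far from the others by Dixon's criterion. For normally distributed values chance meets it in about 1 of 20 groups. A group at 0 but for 1 sample meets it by construction, as in testis and, for the 3p arm, in heart and thymus. The number of flagged groups is therefore not compared with that rate. For miR-885 this was testis sample 5, at 10.4 RPM from 3 reads, with 0 reads in the other testis samples. For the 3p arm the samples were heart sample 3 (0.622 RPM, 1 read), ileum sample 3 (1.17 RPM, 1 read, next highest 0.163 RPM), pancreas sample 5 (4.44 RPM, 3 reads, next highest 0.412 RPM) and thymus sample 4 (0.293 RPM, 1 read). None of these values rests on more than 3 reads.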

How the results depend on the processing

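Scaling moved the brain level and the ratios to it, and left the liver, jejunum and duodenum medians within 1 SD. With TMM and DESeq2 factors the brain median was 368 and 423, the brain ratio to all other samples 10.4 and 10.7, the liver ratio 4.84 and 4.65 (2.57 to 3.82 with each sample left out), the brain median over the highest other sample 1.23 and 1.32, liver 62.7% and 61.2% of brain, and jejunum 35.8% and 34.4%. For brain against liver, miR-885 lost its call with DESeq2 (0.74), DESeq2 factors in edgeR (0.74), upper quartile scaling (0.50) and the fit over all tissues (0.65, adjusted p = 0.306), and the 3p arm turned to -0.15 with upper quartile scaling. Over its alternatives the adjusted p of miR-885 was 8.94e-04 to 0.306. Liver against jejunum was 0.62 with library size, and 0.43 to 0.76 with each sample left out. Of the 8 most like miRNAs, 5 were kept with Spearman or a pseudocount of 10, 4 with tissue means or a limit of 100 RPM, and 3 over samples or with TMM. The jejunum SD was 3.24 times counting with TMM, against 5.38. Over the 66 samples outside brain and liver, Spearman's rho with miR-124 was 0.252 and -0.0568 after thinning, that with miR-122 -0.0018 and with miR-194 0.448. Per miR-192, duodenum stood at 0.874 of jejunum, per miR-194 at 1.38, per miR-215 at 1.65, and at 0.687 to 1.09 with each sample left out. The causes were not tested. No paired analysis was possible because the labels give no dog or replicate number. Depth limits values below about 20 RPM in the shallowest libraries.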

Other observations

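Some duodenum and jejunum libraries were close to each other, although the labels do not tie them. Duodenum sample 1 and jejunum sample 1 held 142 and 143 RPM of miR-885, and duodenum sample 2 and jejunum sample 2 held 94.7 and 98.2 RPM. Over miRNAs with at least 10 reads in the pair, the Spearman correlation of counts was 0.972 for the former and 0.981 for the latter pair. Their counts still differed by more than sampling noise, with a chi-square per degree of freedom of 43.5 and 232.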
